A study of Homo sapiens with 36 samples.

Results

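TP53I3 and FAM228B are 2 genes of 62757 in the count tables, chosen by name because they lie on opposite strands of the same stretch of chromosome 2, and their levels are described here from unstranded, forward-strand and reverse-strand counts. TP53I3, also known as PIG3, encodes an NADPH-dependent quinone oxidoreductase linked to the production of reactive oxygen species, and it is a known target gene of the transcription factor p53. FAM228B is a protein-coding gene whose function is little known. TP53I3 was picked for its strong rise with oxaliplatin in earlier results on these libraries, and FAM228B was chosen with these results known. The oxaliplatin responses of both genes are therefore given as descriptions, without a test. The tests concern the other comparisons, of which the interactions with oxaliplatin are differences between those responses.

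p53 is stabilised when DNA is damaged and then switches on genes for cell cycle arrest, repair and cell death. Oxaliplatin (OXPT) is a platinum drug that crosslinks DNA and is used against colorectal cancer. HCT-116, the cell line used here, comes from a colorectal carcinoma.

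PolyA RNA was sequenced from 36 libraries of HCT-116 cells, and 24 of them form 8 groups of 3. FBXW7-/- cells (KO) were edited by a commercial supplier to lack the ubiquitin ligase subunit FBXW7. Their HDAC4 was targeted by esiRNA (esiHDAC4) or left alone under a control esiRNA (esiCT), and a further set had esiCT with #11, a PROTAC compound that degrades class IIa histone deacetylases. Each agent was applied for 48 h. Each set was left untreated (UNT) or given OXPT at 50 µM for the last 24 h. WT cells were likewise untreated or given OXPT, with an esiRNA that the label entries give differently (control or HDAC4), so WT stands for either. The entries give #11 at 1 µM or 10 µM, and the sources used here do not say whether the KO line is 1 clone. The other 12 libraries, all WT, have label entries with opposite OXPT states and enter no comparison.

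The 24 libraries held 10725966 to 20527222 unstranded counts (median 14510758), and 7.74% to 22.3% of reads were unmapped, the highest share in KO esiCT OXPT replicate 3. All 7 markers of an epithelial line (EPCAM, KRT8, KRT18, KRT19, CDH1, CLDN4 and CLDN7) were expressed, with a summed level of 5516 to 22466 CPM, which are counts relative to the normalized size of the library. The 4 leukocyte markers together stayed at or below 1.14 CPM, the 3 endothelial markers at or below 2.37 CPM, and of the 4 fibroblast markers only COL1A1, at 25.1 to 77.6 CPM, passed 1 CPM in any library. HDAC4 RNA was at 10.9 ± 3.48 CPM (SD, n = 3) in untreated KO esiHDAC4 against 19.1 ± 5.45 in untreated KO esiCT, and at 3.88 ± 0.481 against 6.50 ± 0.915 with OXPT. FBXW7 RNA was at 16.9 ± 1.34 CPM in untreated KO esiCT against 21.1 ± 3.60 in untreated WT, and at 42.6 ± 7.72 against 29.9 ± 14.8 with OXPT. These levels were not tested here, and counts over the whole gene do not test for a small edit. In RNA from whole cultures, fewer cells that express a gene and less RNA per cell cannot be told apart.

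TP53I3 (ENSG00000115129.14) spans chr2:24077433-24085861 of hg38 on the minus strand, and FAM228B (ENSG00000219626.9) spans chr2:24076526-24169640 on the plus strand, in the GENCODE 44 annotation, which was matched to the identifiers of the counts. TP53I3 thus lies wholly inside the span of FAM228B. Their exons meet in only 1 place, chr2:24080876-24080955, a stretch of 80 bases. For TP53I3 these bases lie inside exon 3 of the canonical transcript, and all 80 are coding. For FAM228B they form exon 2 of 5 of its 10 annotated transcripts, none of them the canonical one, and none of the 80 bases is coding. The remaining exon sequence that no other gene covers is 2232 bases for TP53I3 and 4219 bases for FAM228B, of which 277 lie within the TP53I3 span. A further 628 exon bases of FAM228B are shared with a gene on its own strand, ENSG00000276087, and are lost to FAM228B in every kind of count.

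The sequence of TP53I3 exon 3 is shown because reads on it decide how much FAM228B appears to be expressed. It is chr2:24080819-24081031, written 5′ to 3′ on the TP53I3 strand, and the capitals mark the 80 bases that are also exon 2 of FAM228B on the other strand.
TP53I3 exon 3: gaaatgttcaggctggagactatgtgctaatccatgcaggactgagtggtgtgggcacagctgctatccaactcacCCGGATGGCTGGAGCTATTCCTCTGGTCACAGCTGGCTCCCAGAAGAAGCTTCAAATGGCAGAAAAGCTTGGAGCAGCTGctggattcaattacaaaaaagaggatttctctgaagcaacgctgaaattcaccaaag
A read that lies wholly within the capitals can be assigned to 1 of the genes only if the library keeps the strand of the RNA.

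The start of TP53I3 holds the sequences that the p53 literature ties to this gene, and they are shown because the OXPT response below is the main feature of the gene. The canonical start is at position 24084834. The best match to the p53 consensus (2 half-sites, no spacer) between 500 bases before and 700 bases after this start is chr2:24085165-24085184, with 3 mismatches, in exon 1 of another TP53I3 transcript. The capitals mark the 4-base core of each half-site.
p53 consensus match: cagCTTGcccaccCATGctc
A second element lies in the 5′ untranslated region, where chr2:24084343-24084417 consists of 15 tandem units of TGNCC, 16 bases before the start codon. The first 6 units, chr2:24084388-24084417, follow, with the variable base (N) in capitals.
TGNCC repeat: tgCcctgTcctgTcctgCcctgCcctgTcc
The number of units is that of the reference genome and not of HCT-116. Across the same windows of 19970 protein-coding genes, 17.8% held a p53 consensus match with at most 3 mismatches, on either strand because the consensus reads the same on both, and 15 of 28 known p53 targets (53.6%) did. A run of 10 or more TGNCC units was present in 1 of the 19970 windows, that of TP53I3. These matches describe the sequence and do not show binding.

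The library kit named in the labels keeps strand, but the counts did not show it. In every one of the 24 libraries the reverse-strand total was 1.004 to 1.016 times the forward-strand total. TP53I3 itself had reverse over forward ratios of 0.825 to 1.30, and FAM228B of 0.647 to 1.25. With equal shares of reads on both strands, each read on the 80-base stretch is given to TP53I3 or to FAM228B according to its direction. In the unstranded column the same read is ambiguous and is given to neither gene.

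The forward count plus the reverse count minus the unstranded count of a gene gives the reads it shares with genes on the opposite strand. Reads on exons shared with a gene on the same strand are in none of these counts, so they are not part of it. For TP53I3 these were 42 to 2697 reads per library, and for FAM228B the number was the same to within 4 reads below and 10 reads above. Shared reads followed TP53I3, with 0.218 to 0.359 shared reads for each read of TP53I3 alone. They made up 17.9% to 26.4% of the stranded counts of TP53I3. For FAM228B they were 74.9% to 92.2% of the stranded counts in the 12 untreated libraries and 97.2% to 98.7% in the 12 OXPT libraries. The extreme untreated library was KO #11 UNT replicate 3, with 137 shared reads and a share of 74.9% (95% Wilson interval 68.1% to 80.6%), and the extreme OXPT library was KO esiHDAC4 OXPT replicate 3, with 1756 shared reads and 98.7% (98.1% to 99.1%). These intervals cover counting error only. Over all 24 libraries, 96.9% of the stranded counts of FAM228B and 23.4% of those of TP53I3 were shared, against a median of 0.0927% over the 11184 genes with a mean reverse-strand count of at least 64. A share above 90% was found in 887 of these genes (7.93%).

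**Figure D1:**
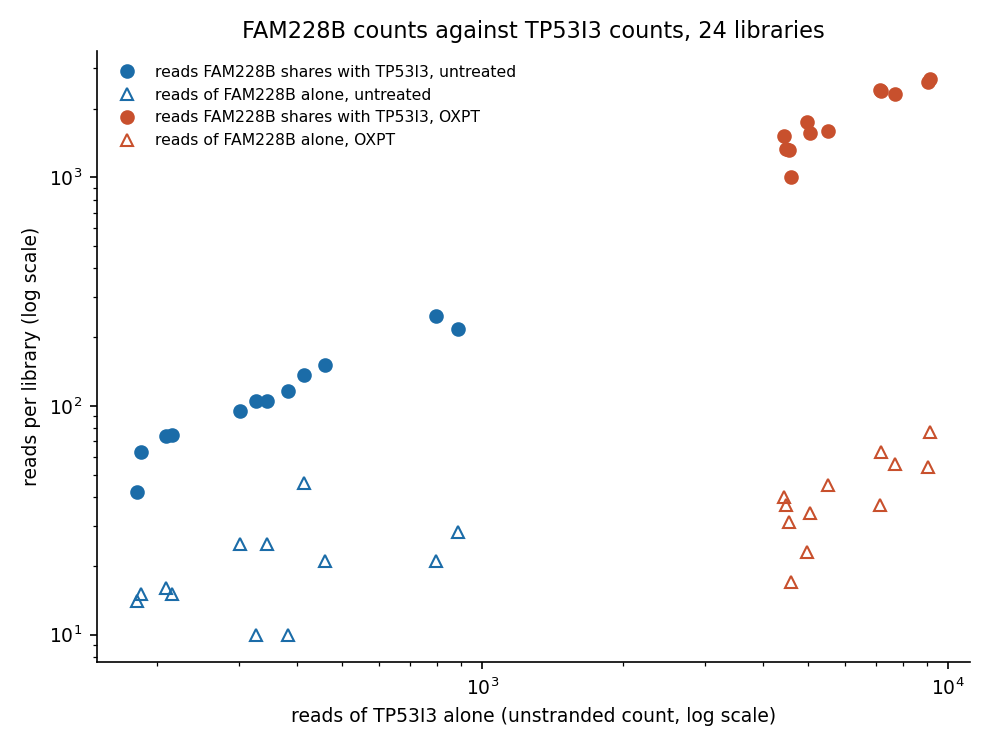
Reads per library that FAM228B shares with TP53I3 (filled circles) and that belong to FAM228B alone (open triangles), against the reads of TP53I3 alone, on log axes, for 12 untreated (blue) and 12 OXPT (red) libraries. The shared reads rise along with TP53I3 from 42 to 2707, while the reads of FAM228B alone stay between 10 and 77.

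TP53I3 was low in untreated cells and high with OXPT in all 4 settings. All levels that follow are CPM of unstranded counts after TMM normalization. In KO esiCT cells TP53I3 was at 20.6, 13 and 25.3 CPM untreated (replicates 1 to 3) and at 444, 324 and 547 CPM with OXPT. In KO esiHDAC4 cells it was at 17.7, 10.4 and 16.0 CPM untreated and at 335, 305 and 408 CPM with OXPT. The highest untreated library of each of these settings was thus far below the lowest OXPT library, by 12.8-fold with esiCT and 17.2-fold with esiHDAC4. In KO #11 cells TP53I3 was at 34.0, 41.7 and 29.6 CPM untreated and at 562, 683 and 356 CPM with OXPT, with a gap of 8.54-fold. In WT cells it was at 26.1, 9.56 and 78.4 CPM untreated and at 416, 305 and 521 CPM with OXPT, and the gap narrowed to 3.89-fold because WT UNT replicate 3 was so high.

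Ordered by mean, TP53I3 was lowest in KO esiHDAC4 UNT (14.7 ± 3.85 CPM, SD, n = 3), followed by KO esiCT UNT (19.6 ± 6.21), KO #11 UNT (35.1 ± 6.11) and WT UNT (38.0 ± 35.9). The OXPT groups followed, with KO esiHDAC4 OXPT (349 ± 52.8), WT OXPT (414 ± 108), KO esiCT OXPT (438 ± 112) and KO #11 OXPT (534 ± 165). Neighbours in this order overlapped except at 2 steps, from KO esiCT UNT to KO #11 UNT and from WT UNT to KO esiHDAC4 OXPT. Among the 12356 genes tested, TP53I3 ranked between 4946 and 8437 by level in the untreated groups and between 207 and 361 in the OXPT groups, counting from the highest.

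**Figure D2:**
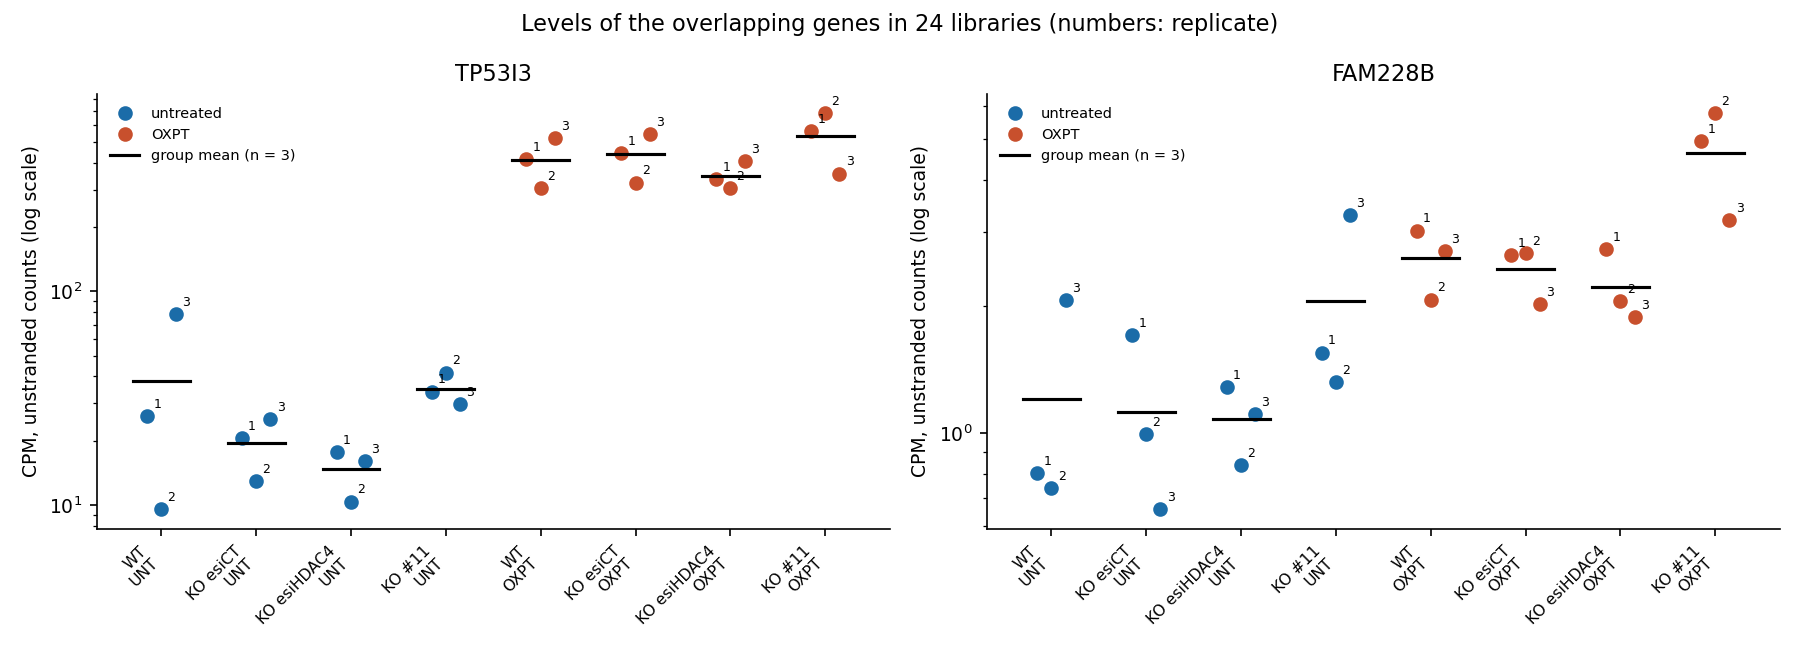
Levels of TP53I3 and FAM228B in CPM of unstranded counts (log axis) in the 24 libraries of 8 groups; points are libraries with their replicate number, and black lines are group means (n = 3). TP53I3 lies at 9.56 to 78.4 CPM in the untreated libraries and at 305 to 683 CPM in the OXPT libraries, and FAM228B lies at 0.660 to 3.30 and 1.89 to 5.76 CPM.

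The fitted log2 fold change of TP53I3 with OXPT was 4.48 (SE 0.54) in KO esiCT, 4.57 (SE 0.54) in KO esiHDAC4, 3.93 (SE 0.52) in KO #11 and 3.45 (SE 0.51) in WT, or 22.4-fold, 23.8-fold, 15.2-fold and 10.9-fold. By size, the value it was picked for, TP53I3 stood 9th in KO esiCT, 6th in KO esiHDAC4, 9th in KO #11 and 12th in WT among all 12356 genes. Without WT UNT replicate 3 the WT value was 4.56. That library also had a TMM normalization factor of 0.851, below 22 of the other 23 libraries.

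FAM228B was at the edge of detection when only reads on exon sequence of its own were counted. Of that sequence 277 bases lie within the TP53I3 span, where a read without strand can come from RNA of either gene. How many of the reads came from there was not tested. In KO esiCT cells FAM228B was at 1.71, 0.993 and 0.660 CPM untreated and at 2.65, 2.67 and 2.02 CPM with OXPT. It had 10 to 54 reads per library there. In WT cells it was at 0.802, 0.740 and 2.07 CPM untreated and at 3.03, 2.08 and 2.71 CPM with OXPT. In KO esiHDAC4 cells it was at 1.28, 0.840 and 1.11 CPM untreated and at 2.73, 2.06 and 1.89 CPM with OXPT. These untreated and OXPT libraries did not overlap, although in WT the lowest OXPT library was only 1.001 times the highest untreated library. In KO #11 cells FAM228B was at 1.55, 1.32 and 3.30 CPM untreated and at 4.94, 5.76 and 3.20 CPM with OXPT, and the groups overlapped.

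Per kilobase of exon sequence of its own, TP53I3 was at 6.59 to 17 CPM per kb as group means in the untreated groups and at 156 to 239 CPM per kb with OXPT. On the same scale FAM228B was at 0.256 to 0.488 CPM per kb untreated and at 0.528 to 1.10 CPM per kb with OXPT. TP53I3 was therefore 25.8 to 59.7 times as high as FAM228B per length without OXPT and 218 to 338 times as high with it. The lengths join the exons of all annotated transcripts of each gene. The canonical transcripts have 1653 bases (TP53I3) and 1369 bases (FAM228B), so the ratios depend on which transcripts were present, which was not tested.

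The fitted log2 fold change of FAM228B with OXPT was 1.08 (SE 0.45) in KO esiCT, 1.01 (SE 0.45) in KO esiHDAC4, 1.20 (SE 0.43) in KO #11 and 1.13 (SE 0.45) in WT, or 2.02-fold to 2.30-fold. These rested in part on single libraries, with 0.81 to 1.51 in KO esiCT when 1 library was left out (1.51 without KO esiCT UNT replicate 1), 0.83 to 1.16 in KO esiHDAC4, 0.97 to 1.66 in KO #11 (1.66 without KO #11 UNT replicate 3) and 0.88 to 1.72 in WT (1.72 without WT UNT replicate 3). FAM228B did not reach the count minimum of 64 in any group, so these values come from the fit of all 42865 genes with counts. Counted with the strand columns, the same gene appeared to be a strongly OXPT-responsive gene. Its reverse-strand level in KO esiCT cells was 7.86, 4.78 and 7.92 CPM untreated and 112, 86.9 and 101 CPM with OXPT, 14.6-fold higher by the means. Its fitted log2 fold changes with OXPT were 3.29 to 4.27, from fits with the count minimum, over the 4 settings and the 3 ways of using the strand columns (reverse, forward and their sum). TP53I3 hardly differed between the columns, with folds of means of 22.4 (unstranded), 21.5 (reverse) and 20.1 (forward) in KO esiCT and of 10.9, 10.2 and 11.3 in WT.

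**Figure D3:**
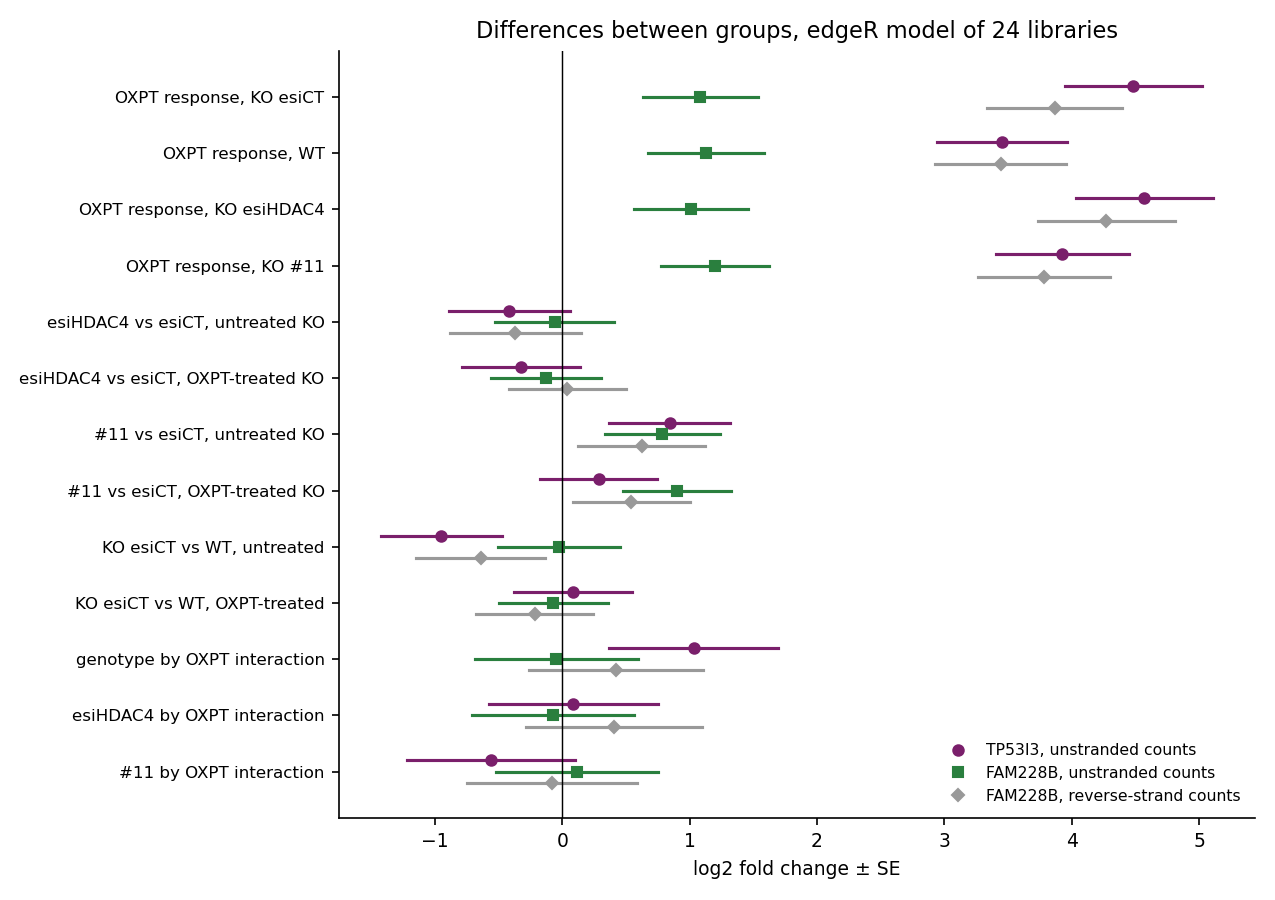
Log2 fold changes ± SE of TP53I3 and FAM228B in 13 comparisons from unstranded counts, and of FAM228B from reverse-strand counts (grey). In the 4 OXPT responses FAM228B lies at 1.01 to 1.20 with unstranded counts and beside TP53I3 with reverse-strand counts; none of the 9 other comparisons was called for either gene.

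The 9 tested comparisons ask whether HDAC4 silencing, #11 or the KO line against WT shifts these genes. The interactions with OXPT among them are differences between the OXPT responses that the choice used, so they are not free of it. TP53I3 was not called in any of the 9 by edgeR's quasi-likelihood test with Benjamini-Hochberg adjustment over all 12356 genes. A call needs a fold change of more than 1.5 and an adjusted p below 0.05. In the interactions with OXPT edgeR called 0% of all genes, so the lack of a call there says nothing particular about TP53I3. An unadjusted p under 0.05 was found in them for 1.63% (genotype), 0.154% (esiHDAC4) and 6.98% (#11) of all genes. TP53I3 had an unadjusted p under 0.05 in 0 of the 9 with edgeR and in 1 of the 9 with DESeq2, where it was not called either. FAM228B was called in none by edgeR or DESeq2, with an unadjusted p under 0.05 in 1 of 9 for each tool.

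Silencing of HDAC4 in KO cells left TP53I3 at 14.7 against 19.6 CPM without OXPT and at 349 against 438 CPM with it. The log2 fold changes were -0.41 (95% interval -1.40 to 0.57, adjusted p = 1.00 by edgeR) and -0.33 (-1.29 to 0.64, adjusted p = 1.00 by edgeR), and the libraries overlapped in both. In these comparisons, which share the esiCT libraries with those of #11 and of WT, 0.00809% and 0% of all genes were called, while DESeq2 called 40 and 9 genes, and edgeR gave 394 and 380 genes an unadjusted p below 0.05. The response to OXPT differed between esiHDAC4 and esiCT by a log2 value of 0.09 (-1.29 to 1.46, adjusted p = 1.00 by edgeR). FAM228B differed by -0.06 (-0.97 to 0.86) without OXPT and by -0.13 (-0.97 to 0.72) with it.

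With #11, TP53I3 in untreated KO cells was at 29.6 to 41.7 CPM against 13 to 25.3 CPM with esiCT alone, and the 3 libraries of each group did not overlap. The log2 fold change was 0.84 (95% interval -0.14 to 1.83), with an edgeR p of 0.0899 and an adjusted p of 0.455, in a comparison in which 0.51% of all genes were called (0.38% higher, 0.129% lower). With OXPT the groups overlapped, at 356 to 683 against 324 to 547 CPM, and the log2 fold change was 0.28 (-0.68 to 1.25, adjusted p = 0.864 by edgeR; 0.121% of all genes called, 0.105% higher and 0.0162% lower). The OXPT response of TP53I3 with #11 differed from that with esiCT by -0.56 on the log2 scale (-1.93 to 0.82, adjusted p = 0.998 by edgeR). FAM228B was higher in all 3 KO #11 OXPT libraries (3.20 to 5.76 CPM) than in the 3 KO esiCT OXPT libraries (2.02 to 2.67 CPM). Its log2 fold change there was 0.90 (0.07 to 1.73), with an edgeR p of 0.0334 and an adjusted p of 0.616, and in untreated cells it was 0.79 (-0.10 to 1.67, adjusted p = 0.795 by edgeR). The untreated value was 0.34 without KO #11 UNT replicate 3 and 1.21 without KO esiCT UNT replicate 1.

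Between KO esiCT and WT, TP53I3 was at 19.6 ± 6.21 against 38.0 ± 35.9 CPM without OXPT (SD, n = 3 each), and the wide spread of WT covered the KO libraries. The log2 fold change was -0.95 (95% interval -1.94 to 0.04), with an edgeR p of 0.0589 and an adjusted p of 0.897, where 0.291% of all genes were called (0.00809% higher, 0.283% lower; 36 genes, and 75 with the replicate number as a block). This difference rested on WT UNT replicate 3, and without that library it was 0.15. With OXPT the groups overlapped, and the log2 fold change was 0.08 (-0.88 to 1.04, adjusted p = 0.995 by edgeR; 0.138% of all genes called, 0.00809% higher and 0.129% lower). The OXPT response of TP53I3 was larger in KO esiCT than in WT by 1.03 on the log2 scale (-0.35 to 2.41, adjusted p = 1.00 by edgeR), and this difference was -0.08 without WT UNT replicate 3. FAM228B differed by -0.02 (-0.96 to 0.92) and -0.07 (-0.91 to 0.77). In these comparisons genotype cannot be told apart from the esiRNA of WT, which may be control or HDAC4, or from the cell clone.

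Most other p53 target genes measured in the same libraries were called higher with OXPT as well. Of 28 known targets, 27 passed the count filter. In KO esiCT 21 were called higher and 0 lower by edgeR, against 6.23% of all genes called higher and 5.08% lower (11.3% in all), with a median log2 fold change of 1.96 against 0.01 over all genes. In KO esiHDAC4 21 were called higher and 0 lower, against 6.44% and 5.54% of all genes (12% in all), with a median of 1.79 against 0.02, and in KO #11 19 were called higher and 0 lower, against 5.94% and 3.57% (9.51% in all), with a median of 1.54 against -0.0024. In WT 19 were called higher and 0 lower, against 5.1% and 5.6% (10.7% in all, 1322 genes), with a median of 1.46 against -0.06. A fit of the WT libraries alone called 6 of the targets and only 84 genes in all. Without WT UNT replicate 3 the WT fit called 24 of the 27 and 2105 genes in all, with a median of 1.90 for the targets. These target counts thus moved along with the calls over all genes. No target in the list rose as much as TP53I3 in any of the 4 settings, but TP53I3 was picked for this rise.

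CDKN1A, the inhibitor of cyclin-dependent kinases that arrests the cell cycle, rose by a log2 fold change of 3.18 (SE 0.38) in KO esiCT and of 2.55 (SE 0.37) in WT. In untreated WT it ranged from 288 to 1221 CPM, and without WT UNT replicate 3 the WT value was 3.47. MDM2, the ubiquitin ligase that keeps p53 low, rose by 2.58 (SE 0.51) in KO esiCT and 1.84 (SE 0.49) in WT. In WT it ranged from 54.5 to 366 CPM with OXPT and from 57.3 to 91.5 CPM untreated, so the groups overlapped. FDXR, a mitochondrial ferredoxin reductase, rose by 2.31 (SE 0.24) in KO esiCT and 2.43 (SE 0.24) in WT. The death receptor gene FAS rose by 2.71 (SE 0.39) and 2.19 (SE 0.39) in the same order. CCNG1, SESN2, PMAIP1, RRM2B and GADD45A were called in none of the 4 settings by edgeR with all 24 libraries. DESeq2 called GADD45A in KO esiCT and KO esiHDAC4 and PMAIP1 in KO esiCT. Among them GADD45A, a stress-response gene, was at a log2 fold change of 1.45 in KO esiCT and 1.5 in KO esiHDAC4. In KO #11 it was at -0.03 and in WT at 0.16. edgeR called 0% of all genes in the interactions of OXPT with #11 and with genotype. In KO #11 GADD45A was at 305 ± 13.6 CPM untreated and 299 ± 20.6 with OXPT, against 74.0 ± 10.0 and 203 ± 43.1 in KO esiCT. The untreated difference between #11 and esiCT (log2 fold change 2.04, SE 0.51, adjusted p = 0.074 by edgeR) was not called for GADD45A. Its WT value rested on WT UNT replicate 3, with a range of 86.8 to 566 CPM in untreated WT, and was 1.66 without that library.

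**Figure D4:**
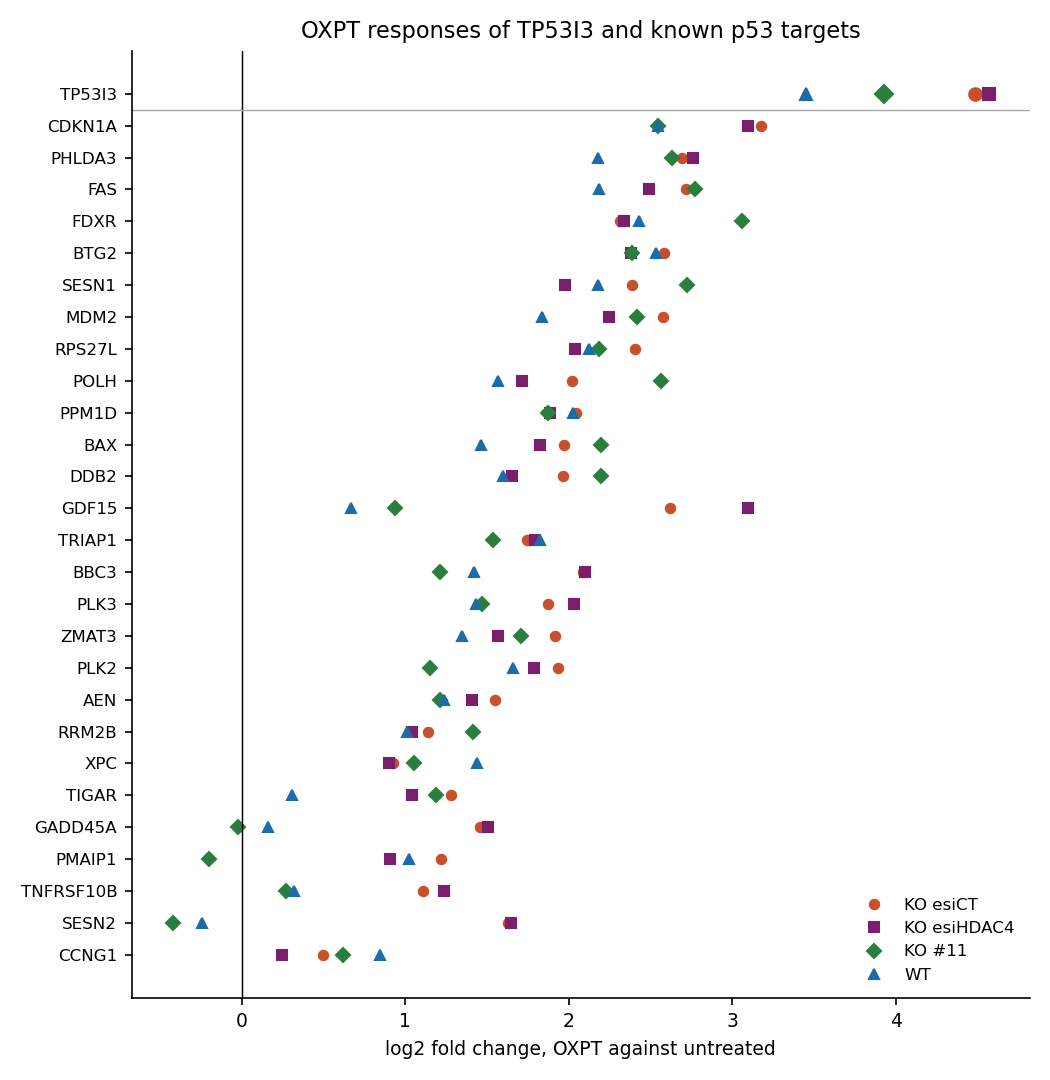
Log2 fold changes with OXPT of TP53I3 (top row) and the 27 known p53 targets that were tested, in KO esiCT, KO esiHDAC4, KO #11 and WT cells. TP53I3, which was picked for this rise, lies at 3.45 to 4.57, to the right of every other gene shown in the same setting.

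With all 24 libraries edgeR called only 1 of these targets in any of the 9 tested comparisons. PMAIP1, which encodes the proapoptotic protein NOXA, was higher with #11 in untreated KO cells (134 ± 15.9 against 34.5 ± 3.59 CPM, log2 fold change 1.96, SE 0.41), where edgeR called 0.51% of all genes. In that comparison DESeq2 called 4 of the 27, against 3.31% of all genes, and 6 had an unadjusted p below 0.05 with edgeR, against 13.8% of all genes. Without WT UNT replicate 3 edgeR called 5 of the 27 there and 338 genes in all. The same fit called 1 of the 27 and 39 genes in all in the #11 by OXPT interaction. For KO esiCT against untreated WT edgeR called 0 of 27, with 7 at an unadjusted p under 0.05 (5.74% of all genes) and 2 called by DESeq2 (0.947% of all genes). For esiHDAC4 against esiCT, edgeR called 0 of 27 without OXPT and 0 with it, with 2 and 1 at an unadjusted p under 0.05 (3.19% and 3.08% of all genes). DESeq2 called 1 of 27 in each of them (0.324% and 0.0728% of all genes), TRIAP1, at log2 fold changes of -1.14 and -1.11.

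Among the genes named, like TP53I3, for induction by p53, 5 of 9 were tested. TP53INP1, whose product promotes p53-dependent cell death, was called higher with OXPT in all 4 settings by edgeR and DESeq2, by log2 fold changes of 2.07 to 2.25. EI24, also known as PIG8, was called higher by edgeR in KO #11 (1.39, SE 0.38) and was at 1.07 to 1.16 in the other settings, of which DESeq2 called KO esiCT and KO esiHDAC4. TP53I11, also known as PIG11, was called by both tools in KO #11, at 0.79, and in no other setting, and TP53I13 was called by neither tool in any setting, at 0.39 to 0.63. LGALS7B was called higher by edgeR in KO esiCT and KO #11, and by DESeq2 also in KO esiHDAC4, from a mean of 0.375 CPM in untreated KO esiCT, and shares near-identical sequence with LGALS7, so its counts are uncertain.

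Of the quinone reductases and related oxidoreductases 9 were tested, among them CRYZ, the zeta-crystallin quinone reductase, and NQO1. None was called with OXPT in any setting by edgeR or DESeq2, and an unadjusted p under 0.05 was found for 0 in KO esiCT, 1 in KO esiHDAC4, 0 in KO #11 and 1 in WT. Over all genes edgeR called 9.51% to 12%, and 23.5% to 26.1% had an unadjusted p under 0.05, so that few calls among 9 genes say little about them. NQO1, the abundant quinone reductase of this line at 587 ± 109 CPM in untreated KO esiCT, was at a log2 fold change of -0.18 (SE 0.39) in KO esiCT and -0.13 (SE 0.39) in WT.

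Of 22 other annotated genes that overlap the span of both genes or the 250 kb on either side, 7 were tested, and 0 were called with OXPT in any setting by edgeR or DESeq2, with 0 at an unadjusted p under 0.05. With the shares of all genes given above for the quinone reductases, 0 of 7 is not a result about the locus. SF3B6, a splicing factor gene on the minus strand next to the start of FAM228B, was at a log2 fold change of 0.46 (SE 0.39) in KO esiCT and 0.33 (SE 0.39) in WT, or 0.97 in WT without WT UNT replicate 3. FAM228A, the relative of FAM228B, had a mean of 0.022 CPM in untreated KO esiCT and 0 in both WT groups. ENSG00000276087, which shares exons with FAM228B on the same strand, had a count of 0 in KO esiCT and WT. Reads on those shared exons count for neither gene, so this 0 is not a measure of its level.

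The genes whose levels ran most alike with TP53I3 over the 24 libraries, by Pearson's r of log2 CPM, were SYT8 (0.987), INKA2 (0.983), ZNF219 (0.980), ELAPOR1 (0.977), ISCU (0.976) and CDKN1A (0.975). These values include the gap between untreated and OXPT libraries. SYT8, a synaptotagmin gene, was at log2 fold changes with OXPT of 3.92 to 4.87. FAM228B reached 0.804 with TP53I3 on this scale. Within groups, by deviations from the group means, the 6 most alike genes were SLC25A45 (0.942), SDSL (0.937), TINF2 (0.937), NAGK (0.937), FBXW4 (0.935) and TCN2 (0.935), and none of them was among the first 6. CDKN1A was at 0.850, FAM228B at 0.456 and MDM2 at -0.37 by this measure. For FAM228B the most alike were LAMC3 (0.912), SYTL1 (0.884) and CSF1 (0.862) by level, and PABPC1L (0.841), MROH6 (0.821) and ALS2CL (0.790) by deviations. Libraries share depth and normalization, so these correlations are descriptions.

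Within groups, TP53I3 replicate 2 was lowest in 6 of the 8 groups and replicate 3 in both #11 groups, and in WT UNT the 3 libraries ranged from 9.56 to 78.4 CPM. The ratio of OXPT to untreated for libraries of the same number was 4.43 to 4.64 on the log2 scale in KO esiCT, 4.24 to 4.88 in KO esiHDAC4, 3.59 to 4.05 in KO #11 and 2.73 to 4.99 in WT. For FAM228B it was 0.63 to 1.62, 0.77 to 1.29, -0.043 to 2.12 and 0.38 to 1.92.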

How the data were processed

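The authors deposited raw counts per gene and library, whole numbers without normalization, in unstranded, forward-strand and reverse-strand columns, in the layout of STAR gene counts. The submitters' processing notes name Trimmomatic 0.39, STAR 2.7.11a and hg38, the annotation is not given in the sources used here, and 62130 of 62757 identifiers matched GENCODE 44 with their version. The study itself tested salmon estimates, which were not analysed here. Groups came from the labels. The members and gene lists were chosen with earlier results of these data known. The unstranded counts were fitted in R 4.3.3 with edgeR 4.0.16 (TMM, quasi-likelihood F test, 1 model of 24 libraries, 1 coefficient per group), for genes whose mean count reached 64 in any group. FAM228B failed this filter, and its values come from a fit without it. A gene was called where its fold change exceeded 1.5 and its p, adjusted by Benjamini-Hochberg over all genes tested, was below 0.05. SEs of log2 fold changes are approximate. Log2 CPM used a prior count of 2. DESeq2 1.42.0, RLE factors, other columns and filters, fits of only the groups compared, a replicate block and leaving out each library were alternatives. Leaving out WT UNT replicate 3 for the listed genes was added after seeing the data. The fit was tested on simulated data. The results for 1 of the fixed lists are not reported here. Named genes are both members, the fixed lists, the most alike genes and the targeted genes. Nothing says that replicates were separate cultures, so p-values measure the spread between these libraries, which may be technical. Same-numbered libraries deviated together, with correlations across genes above 0.1 for every pair in the comparisons without #11 against esiCT (0.113 to 0.788), which pairs the numbers there from the data, while with #11 they ranged from -0.385 to 0.128.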

Additional observations from a re-analysis of the deposited data

Results flagged for a closer look

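TP53I3 in the 12 WT libraries with contradictory label entries was looked at although they enter no comparison, and 5 of the 12 lay above the highest WT UNT library (77.1 CPM when all 36 libraries were normalized together). That library was WT UNT replicate 3. The 5 libraries all have a title with OXPT. Of 6 libraries with such a title the lowest was at 77.0 CPM, and the highest of the others was at 51.5 CPM. The labels do not settle the treatment of these libraries, and no group was formed from them.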

How the results depend on the processing

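TP53I3 kept the direction of its 4 OXPT responses under every alternative, at 2.98 to 4.71 on the log2 scale. It was called in 0 of 306 fits of the 9 tested comparisons (lowest adjusted p 0.0833), and FAM228B in 0 of 288 (lowest 0.192). Leaving out each library in turn moved TP53I3 from -1.41 to 0.15 for KO esiCT vs WT untreated (0.15 without WT UNT replicate 3), from -0.12 to 0.28 for KO esiCT vs WT with OXPT, from -0.077 to 1.49 for the genotype by OXPT interaction and from -0.14 to 0.33 for the esiHDAC4 by OXPT interaction. The sum of the strand columns gave TP53I3 -0.0071 for KO esiCT vs WT with OXPT. For FAM228B the same ranges were -0.33 to 0.37 and -0.31 to 0.014 (esiHDAC4 vs esiCT untreated and with OXPT), -0.45 to 0.55 and -0.21 to 0.093 (KO esiCT vs WT untreated and with OXPT), -0.64 to 0.38, -0.50 to 0.21 and -0.31 to 0.60 (genotype, esiHDAC4 and #11 by OXPT interactions).

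The OXPT response of FAM228B moved with the column, because the strand columns add the shared reads. In KO esiCT, WT, KO esiHDAC4 and KO #11 it was 3.84, 3.44, 4.29 and 3.81 with reverse counts, 4.01, 3.35, 4.15 and 3.77 with forward counts, and 3.93, 3.35, 4.24 and 3.80 with their sum, all without a count minimum. Its other values that changed sign were 0.045 for esiHDAC4 vs esiCT with OXPT (reverse), 0.41, 0.66, 0.57 and 0.0017 for the genotype by OXPT interaction (reverse, forward, sum, RLE), 0.45, 0.14 and 0.31 for the esiHDAC4 by OXPT interaction and -0.035, -0.25 and -0.13 for the #11 by OXPT interaction (reverse, forward, sum).

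With the replicate number as a block no call of either gene changed: TP53I3 was at 4.49 in KO esiCT, 3.59 in WT, 4.58 in KO esiHDAC4 and 3.95 in KO #11 with OXPT, at 0.94 (adjusted p 0.262) for #11 vs esiCT untreated and at -0.83 (adjusted p 0.774) for KO esiCT vs WT untreated. FAM228B was at 1.10, 1.12, 1.02 and 1.21 with OXPT. The block moved the genes called from 63 to 397 and from 15 to 132 for #11 vs esiCT untreated and with OXPT, where the numbers do not pair the libraries, and from 36 to 75 for KO esiCT vs WT untreated. Counts of called genes depended on the fit: for OXPT in WT 1322 became 84 with only the groups compared and 2105 without WT UNT replicate 3, and in KO esiCT 1398 became 553 with only the groups compared. In KO #11 1175 became 2636 with only the groups compared, and in KO esiHDAC4 1480 became 943 with 64 counts in every group. Leaving out 1 library lowered these to 829 in WT (WT OXPT replicate 3), 779 in KO esiCT (KO esiCT UNT replicate 1), 807 in KO esiHDAC4 (KO esiHDAC4 OXPT replicate 2) and 555 in KO #11 (KO #11 OXPT replicate 1). The untreated #11 comparison ranged from 0 without KO esiCT UNT replicate 1 to 566, that with OXPT from 0 to 367, KO esiCT vs WT from 1 to 322 untreated and from 0 to 91 with OXPT, and esiHDAC4 vs esiCT from 0 to 40 and from 0 to 9. The genotype and #11 by OXPT interactions went from 0 to 24 and from 0 to 65 without a count filter. FAM228B rests on 10 to 77 reads per library, which limits its precision; in the fit without a filter the SE of TP53I3 fell from 0.54 to 0.30 in KO esiCT, so SEs of the 2 genes are not on the same footing.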

Other observations

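The 12 WT libraries without a group had TP53I3 levels of 13.1 to 390 CPM (median 64.2), normalized together with the other 24. Libraries titled WT PROTAC11, whose treatment entry names OXPT, were at 48.8, 27.4 and 19.8 CPM (numbers 1 to 3). Libraries titled WT PROTAC11 OXPT, whose treatment entry does not name it, were at 335, 228 and 77.0 CPM. Libraries titled WT siHDAC4 OXPT, whose treatment entry does not name it, were at 315, 334 and 390 CPM, and those titled WT siHDAC4 UNT, whose treatment entry names OXPT, were at 28.8, 13.1 and 51.5 CPM. FAM228B was at 0.763 to 3.59 CPM in these 12 libraries, from 13 to 63 reads of its own, and 80.3% to 98.4% of its stranded counts were shared.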
